A study of Mus musculus with 7 samples.

Results

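The Klf4 region of the 5C experiment is the set of all contacts read out between restriction fragments around the gene Klf4. Its members are the fragment pairs that the contact table assigns to Klf4, chosen by that label alone and not by any measured value. They number 14762 of the 86767 pairs of the whole experiment, and they pair each of 122 forward fragments with each of 121 reverse fragments. The 243 fragments span 989 kb. Positions count in kb from the fragment with the lowest number, because the table holds distances and no chromosome coordinates. The direction of the region on its chromosome and the place of the gene within it are therefore not known here.

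5C (chromosome conformation capture carbon copy) compared V6.5 mouse embryonic stem (ES) cells with neural progenitor cells (NPCs) made from them. V6.5 is a male line of 129SvJae x C57BL/6 background. ES cells were grown with LIF on inactivated fibroblast feeders, which were removed by passages on gelatin before the assay. NPCs were made from the same line by culture as embryoid bodies for 4 days after LIF was withdrawn, then in serum-free ITSFn medium for 5 to 7 days, then with Fgf2 for 2 to 4 days. Fixation was with 1% formaldehyde and digestion with HindIII in both cell types, and each gave 2 libraries. Nothing in the labels says whether the libraries of a cell type are separate cultures, and their spread, on which every p-value rests, may be technical.

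Klf4 encodes a zinc finger transcription factor of pluripotent cells, known as one of the reprogramming factors and as a gene whose expression falls when ES cells leave pluripotency. In RefSeq (GRCm38.p6) its nearest protein-coding neighbours are Rad23b, a factor of nucleotide excision repair, on one side and Actl7b, an actin-like gene, on the other. In 5C, cross-linked chromatin is cut and ligated, and a read count for a forward and a reverse fragment measures how often the pair was joined. Contacts fall with distance, stretches of chromatin that contact themselves more than their surroundings are called domains, and the positions between them are called boundaries. A frequent contact between 2 distant fragments is often called a loop.

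The Klf4 pairs took 1209759 reads of ES replicate 1 and 766083 of ES replicate 2, and 1581047 and 3582495 of NPC replicates 1 and 2. These were 8.40% to 11.3% of each library's reads. Pairs with 0 reads made up 12.1% and 14.1% of the region in ES cells and 17.3% and 21.1% in NPCs, although the NPC libraries were deeper. A single pair, FOR267 with REV075, held 20.0% and 41.7% of the region's reads in ES cells and 7.21% and 4.60% in NPCs. As a description over the 14762 pairs, which share fragments and distances, the log2 scaled reads of the 2 ES libraries correlated with a Pearson's r of 0.911 and those of the 2 NPC libraries with 0.859, against 0.717 to 0.823 between the cell types.

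Reads fell with distance to a similar degree in all libraries. The slope of log10 scaled reads on log10 distance from 10 kb to 1 Mb was −0.887 and −0.892 in ES cells and −0.928 and −0.903 in NPCs. The difference of −0.026 had a two-sided exact permutation p of 0.33, the smallest that 2 against 2 libraries can give. It turned to 0.0263 with library totals as the scale and to 0.0371 without pairs at 0 reads, so no direction is given. Scaled reads are raw reads brought to the smallest library size after TMM scaling.

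Contacts were tested pair by pair with edgeR's quasi-likelihood test over all regions, for the 7394 Klf4 pairs with a mean of at least 10 reads. At an adjusted p under 0.05, 324 of them (4.38%) had more contacts in NPCs and 144 (1.95%) more in ES cells. Over all regions the shares were 4.9% and 2.33%, so the Klf4 shares lay near the background in both directions. The median log2 fold change, NPC over ES, was −0.02 over the tested Klf4 pairs and 0.12 over all tested pairs. The called pairs did not lie evenly along the region. From 700 to 800 kb, 9.04% of the ends of tested pairs belonged to a pair higher in NPCs and 1.09% to a pair higher in ES cells. From 0 to 100 kb the order was the other way round, with 1.03% and 4.72%. Among the 1778 tested pairs that lay wholly above 630 kb, NPCs were higher in 159 and ES cells in 15, while of the 3661 wholly below 630 kb NPCs were higher in 87 and ES cells in 102.

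The number of calls depended on single libraries. With a library left out, its cell type has 1 library, which is assumed to vary like those of the other cell type, so a call that passes then is no sign of stability. Without ES replicate 1 edgeR called 39 pairs toward NPCs and 3 toward ES cells, and without ES replicate 2 it called 7 and 3. Without NPC replicate 1 it called 1593 and 1962, and without NPC replicate 2 it called 489 and 273. With an offset for fragment-wide differences edgeR called 0 pairs in either direction, with 192 and 764 at an unadjusted p under 0.05. DESeq2 without that offset called 657 and 434, and limma 77 and 26. The called pairs are therefore described together with the totals of their fragments.

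Fragment REV310, at 856 kb, had the most pairs higher in NPCs. Its reads summed over all partners were 14395 and 6316 in ES cells and 153265 and 406055 in NPCs, and the groups did not overlap after scaling. The log2 fold change of the sum was 3.64 ± 0.64 (SE, edgeR adjusted p = 4.27e-07). Of its 102 tested pairs, 41 were called higher in NPCs and 0 lower. Both NPC libraries lay above both ES libraries in scaled reads in 79 of its 122 pairs, and both ES libraries above both NPC libraries in 7. REV310 was picked by its calls, so these counts are a description, and the shares over all Klf4 pairs were not counted. The nearest reverse fragments, REV305 and REV312, had 27 and 23 of 122 pairs with both NPC libraries above both ES libraries. They had 43 and 20 with the reverse order. The gain of REV310 was not spread evenly over its partners.

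The strongest gain of REV310 was with FOR127, 489 kb away at 367 kb. That pair had 24 and 9 reads in ES cells and 10514 and 27660 in NPCs. Its log2 fold change was 9.05 ± 0.86 (SE, edgeR adjusted p = 0.0225), and it stood at −0.22 and −0.24 in ES cells and at 5.36 and 4.50 in NPCs in observed over expected. Observed over expected is log2(count + 1) less the region's distance curve and the median effects of both fragments, so it removes a fragment-wide gain and 0 is the expected level.

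FOR124, a neighbour of FOR127 at 363 kb, had 71 and 17 reads with REV310 in ES cells and 7660 and 12846 in NPCs. FOR074, at 205 kb and 651 kb away, had 20 and 5 reads with it in ES cells and 3328 and 6084 in NPCs. FOR111, at 326 kb, had 24 and 18 in ES cells and 1470 and 4875 in NPCs. Nearer by, FOR273 at 761 kb had 88 and 48 in ES cells and 10883 and 40394 in NPCs. In each of these 4 pairs both NPC libraries exceeded both ES libraries, with log2 fold changes of 6.90 ± 0.82, 7.53 ± 0.77, 6.00 ± 0.66 and 7.34 ± 0.83 (SE) and edgeR adjusted p = 0.0225. With the offset for fragment-wide differences their log2 fold changes were 2.50 to 4.69 and their edgeR adjusted p was 0.180.

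The fragments next to REV310 were read in the same way. FOR306 at 853 kb and FOR311 at 857 kb also rose in their summed reads, with log2 fold changes of 2.04 ± 0.40 and 2.17 ± 0.41 (SE, edgeR adjusted p = 4.99e-06 and 3.03e-06). They held 4 called pairs of 49 tested and 2 of 50, and REV310 held 41 of 102. The pair with REV310 itself held 57.7% and 58.7% of the NPC reads of FOR306 and 64.4% and 75.9% of those of FOR311. Much of both sums is therefore reads that REV310 also counts. With pairs over 10 kb apart, the pairs of FOR306 and FOR311 with REV310 are left out. The log2 fold changes of FOR306 and FOR311 were then 0.93 and 1.27 (edgeR adjusted p = 0.0483 and 0.00351), and that of REV310 was 3.84. REV305 at 851 kb, with 0.59 ± 0.41, and REV312 at 860 kb, with 0.99 ± 0.49 (SE), did not pass the test (edgeR adjusted p = 0.234 and 0.0811). REV305 and REV312 held 3 and 1 pairs called higher in NPCs. REV310 has no pairs with other reverse fragments, because 5C reads only forward with reverse fragments.

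**Figure D1:**
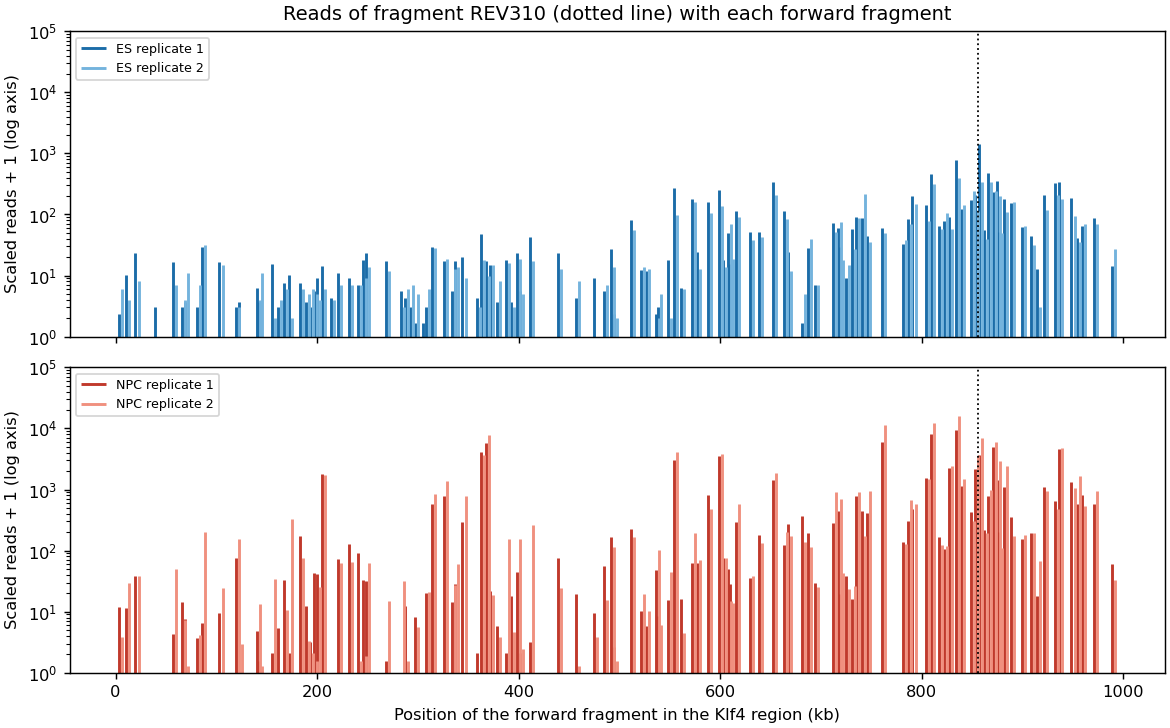
Scaled reads + 1 on a log axis for REV310 (dotted line, 856 kb) with each of the 122 forward fragments along the region in kb, with ES replicates in the upper panel and NPC replicates in the lower one. In NPCs separate peaks stand over FOR074 at 205 kb and FOR124 and FOR127 at 363 and 367 kb, where the ES panel shows few reads.

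Of the other fragments with many calls, FOR273 at 761 kb was higher in NPCs in 34 of 104 tested pairs. FOR127 at 367 kb was higher in 21 of 101 and REV350 at 957 kb in 21 of 76. The summed reads of FOR273 were 8332 and 3449 in ES cells and 62573 and 169796 in NPCs, a log2 fold change of 3.19 ± 0.56 (SE, edgeR adjusted p = 4.38e-07). REV075 at 211 kb was higher in NPCs in 20 of 120 pairs and lower in 1, but its summed reads did not pass the test, with a log2 fold change of −0.85 ± 0.69 (SE, edgeR adjusted p = 0.319). Its pair with FOR267 held 84.2% and 93.6% of its reads in ES cells and 44.0% and 30.0% in NPCs. Without ES replicate 1, and with DESeq2, the lower sum of REV075 in NPCs passed the threshold.

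Over the fragments, summed reads were higher in NPCs for 53 of 243 and lower for 61 (edgeR, adjusted over all regions). The shares over all regions were 27.3% and 19.7%, against 21.8% and 25.1% here. The median log2 fold change was −0.07 for Klf4 fragments and 0.21 for all fragments. Without ES replicate 2 there were 29 higher and 24 lower in NPCs, without ES replicate 1 there were 16 lower, and without NPC replicate 2 there were 39 lower. Above 630 kb 32 of 95 fragments were higher in NPCs and 16 lower. Between 350 and 630 kb the counts were 9 and 23 of 65, and below 350 kb they were 12 and 22 of 83.

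REV263 at 733 kb was the fragment with the lowest adjusted p. It was nearly silent in ES cells, with 91 and 79 reads over all 122 of its pairs, and had 4278 and 5120 reads in NPCs. The log2 fold change was 4.76 ± 0.53 (SE, edgeR adjusted p = 1.83e-16), and both NPC libraries exceeded both ES libraries in 77 of the pairs and lay below both in 1. REV263 was picked by its adjusted p, and the shares over all Klf4 pairs were not counted. The nearest reverse fragments, REV260 and REV266, had 32 and 25 of 122 pairs with both NPC libraries above both ES libraries. They had 15 and 37 with the reverse order. The adjacent forward fragments went separate ways. FOR264 at 735 kb rose by 2.42 ± 0.47, while FOR262 at 731 kb fell by 1.36 ± 0.43 (log2 fold changes with SE, edgeR adjusted p = 4.68e-06 and 0.00593).

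The other fragments with the lowest adjusted p were FOR181 at 537 kb, FOR296 at 827 kb, FOR353 at 971 kb and FOR076 at 214 kb, with log2 fold changes of 2.39 to 3.23 and edgeR adjusted p of at most 4.04e-07. FOR181 had 791 and 394 reads in ES cells and 6344 and 18360 in NPCs. In the other direction FOR210 at 608 kb had 10179 and 5311 reads in ES cells and 2595 and 2680 in NPCs, and the sum fell by 2.48 ± 0.40 (log2 fold change with SE, edgeR adjusted p = 4.27e-08). FOR161 at 475 kb fell by 2.38, REV336 at 930 kb by 2.70, FOR030 at 103 kb by 2.22 and REV007 at 7.18 kb by 2.49 on the log2 scale, with edgeR adjusted p of at most 1.25e-06. The call of REV007 was lost without ES replicate 1. In ES replicate 1 a single pair held 75.4% of the reads of REV336, and with pairs over 10 kb apart it fell by 1.36 on the log2 scale.

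**Figure D2:**
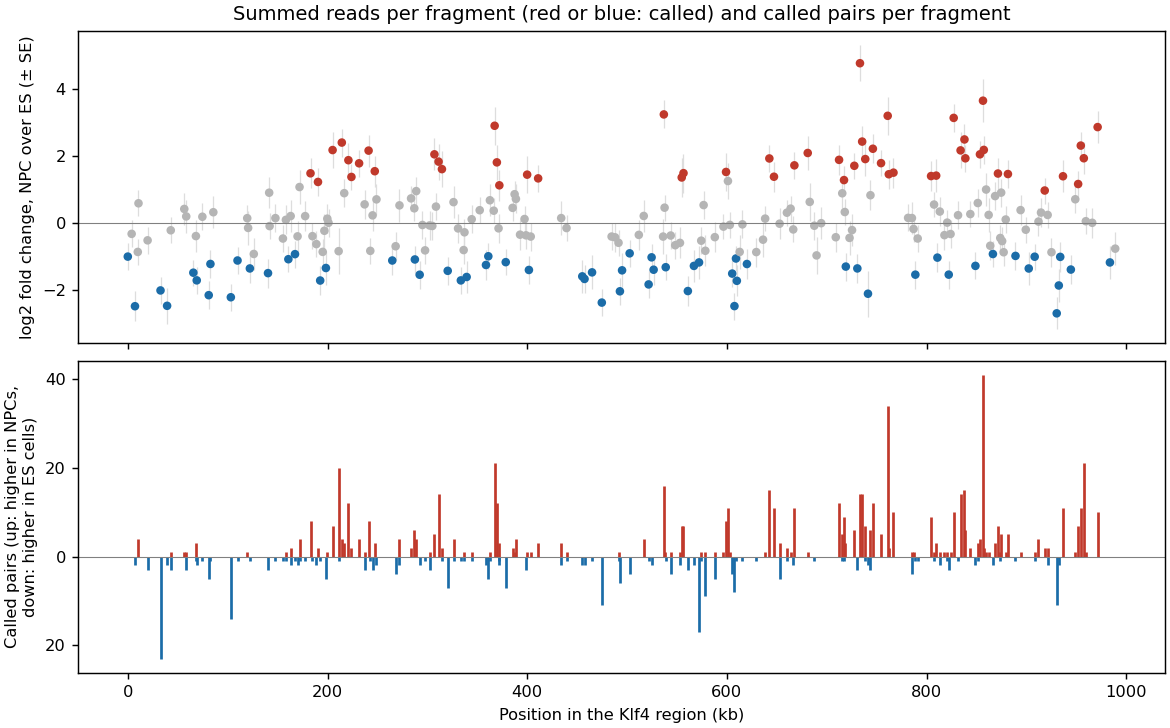
Upper panel, log2 fold change of summed reads, NPC over ES, with SE for each of the 243 fragments by position in kb, red or blue where the edgeR adjusted p is under 0.05. The lower panel counts the called pairs of each fragment, upward for higher in NPCs and downward for higher in ES cells, with REV310 at 41 and REV012 at 23 as the tallest bars of each direction.

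Pairs and fragment totals moved together. Of the 324 pairs higher in NPCs, 317 held at least 1 fragment whose sum was called higher in NPCs, a share of 97.8%, against 47.1% of all tested Klf4 pairs. Of the 144 pairs higher in ES cells, 131 held a fragment called higher in ES cells, a share of 91.0%, against 33.6% of those tested. A pair is part of its fragments' sums, so these shares are not independent of the calls. In observed over expected, 317 of the 324 lay higher in NPCs on average and 284 had both NPC libraries above both ES libraries. For the 144, these counts were 138 and 117 in the direction of ES cells. Calls and observed over expected come from the same reads, so these counts describe the called pairs and do not test them. The shares over all tested pairs were not counted.

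Among pairs higher in ES cells, REV012 at 32.8 kb stood out with 23 called of 62 tested and 0 higher in NPCs. Its summed reads were 8219 and 4764 in ES cells and 2719 and 3737 in NPCs, and the sum fell by 2.02 ± 0.40 (log2 fold change with SE, edgeR adjusted p = 6.02e-06). Of its 23 calls, 18 were with partners below 350 kb, where 40 of its 62 tested pairs lay. With FOR030 at 103 kb it had 326 and 201 reads in ES cells and 16 and 8 in NPCs. With FOR026 at 81.0 kb it had 128 and 78 in ES cells and 7 and 9 in NPCs. It reached further with FOR132 at 378 kb, with 93 and 67 reads in ES cells and 4 and 1 in NPCs. All 3 pairs were higher in both ES libraries, with log2 fold changes of −5.33 ± 0.75, −4.69 ± 0.67 and −5.84 ± 0.96 (SE, edgeR adjusted p of 0.0231 to 0.0261). Each lost its call without ES replicate 1 (edgeR adjusted p above 0.05) and without ES replicate 2. FOR195 at 572 kb followed with 17 of 111, FOR030 with 14 of 60, and FOR161 and REV336 with 11 each.

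The lowest adjusted p among pairs higher in ES cells belonged to FOR226 at 653 kb with REV131 at 372 kb. This pair had 1655 and 739 reads in ES cells and 31 and 138 in NPCs, and the groups did not overlap. The log2 fold change was −5.02 ± 0.68 (SE, edgeR adjusted p = 0.0225), and observed over expected fell from 4.95 and 4.63 in ES cells to −1.17 and −0.31 in NPCs. FOR254 at 717 kb with REV025 at 74.7 kb, 643 kb apart, had 41 and 74 reads in ES cells and 0 in both NPC libraries, so it was at least 40.9-fold higher in ES cells at 3 counts per NPC library. That call was lost without ES replicate 2.

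Pairs were further sorted by observed over expected, with a level of at least 1 on its log2 scale in the libraries of a cell type. There were 117 NPC-specific pairs, called higher in NPCs and at this level in both NPC libraries, and 15 ES-specific pairs by the same rule in ES cells. A further 84 were constitutive, with the level reached in all 4 libraries and no call. These are 1.58%, 0.203% and 1.14% of the tested Klf4 pairs, against 2.22%, 0.285% and 2.14% over all regions. The level and the calls come from the same libraries, so the classes describe and do not test. Without ES replicate 1, ES replicate 2, NPC replicate 1 and NPC replicate 2 in turn, there were 26, 7, 734 and 242 NPC-specific, 3, 3, 76 and 16 ES-specific and 140, 168, 79 and 111 constitutive pairs.

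NPC-specific pairs were both short and long. Of the 117, 61 joined fragments at least 200 kb apart, and the median distance was 230 kb, against 157 kb over all tested Klf4 pairs. Of the 7394 tested, 1940 lay 200 to 400 kb apart and 1098 from 400 kb on. Among the constitutive pairs 47 of 84 were at least 200 kb apart (median 263 kb), and among the ES-specific pairs 10 of 15 (median 312 kb). Long distance was thus not particular to the NPC-specific pairs. REV310 was an end of 20 of the NPC-specific pairs, FOR273 of 11, REV222 at 642 kb of 10, FOR298 at 834 kb of 8 and REV350 of 8. REV075 at 211 kb was an end of 7, all over 200 kb. Its partners there included FOR273, with 233 and 107 reads in ES cells and 6461 and 12436 in NPCs, and FOR250 at 712 kb, with 107 and 59 in ES cells and 1605 and 5739 in NPCs. These 2 pairs and the counts per fragment were picked with their values in view.

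By the naming rule, 5 NPC-specific pairs had the highest level in NPCs, and 3 of them are the REV310 pairs with FOR124, FOR127 and FOR074. FOR353 at 971 kb with REV266 at 739 kb had the highest level, and its reads were 850 and 816 in ES cells and 11181 and 38264 in NPCs. It was far above expected in ES cells too, with 4.59 and 5.57 against 7.22 and 6.36 in NPCs, and its log2 fold change was 3.61 ± 0.70 (SE, edgeR adjusted p = 0.0321). That call was lost without either ES replicate, without NPC replicate 2 and with limma. FOR250 with REV093 at 272 kb, 440 kb apart, rose from 32 and 6 reads in ES cells to 1027 and 1839 in NPCs, a log2 fold change of 5.25 ± 0.72 (SE, edgeR adjusted p = 0.0225). It lost its call without ES replicate 2.

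The 5 ES-specific pairs with the highest level in ES cells were FOR226 with REV131, FOR254 with REV025 and FOR132 with REV012, described above, and 2 more. FOR267 at 741 kb with REV115 at 336 kb had 37 and 96 reads in ES cells and 8 and 3 in NPCs. FOR119 at 344 kb with REV012 had 340 and 192 in ES cells and 48 and 104 in NPCs. The latter stood above expected in NPCs as well, at 1.14 and 1.83 against 2.62 and 2.26 in ES cells. Both pairs lost their call without either ES replicate and with limma, and the former also without NPC replicate 2. REV012 was an end of 5 of the 15 ES-specific pairs.

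Constitutive pairs were led by FOR267 at 741 kb with REV075 at 211 kb, 530 kb apart. It held 95.8% to 98.8% of the summed reads of FOR267 in each library. Whether it is a genomic contact or a property of the primers was not tested. This pair had 242250 and 319356 reads in ES cells and 114050 and 164856 in NPCs. Its observed over expected was 11.9 and 12.8 in ES cells and 11.0 in both NPC libraries, and the highest level of any other named constitutive pair in a library was 6.43. Its log2 fold change of −2.15 ± 0.95 (SE) did not pass the test (edgeR adjusted p = 0.176). The forward fragments next to FOR267 showed no such level with REV075. FOR264 and FOR270, at 735 and 746 kb, had 106 and 54 reads and 213 and 65 reads with REV075 in ES cells, and both pairs were called higher in NPCs (edgeR adjusted p = 0.0247 and 0.0299). In NPCs FOR264 held 19447 and 48321 reads over all its pairs, and FOR270 held 14147 and 33803. These neighbours were chosen after the values were seen.

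The next constitutive pairs were FOR088 at 249 kb with REV222 at 642 kb and FOR205 at 599 kb with REV099 at 289 kb. FOR088 with REV222 had 292 and 327 reads in ES cells and 1790 and 3616 in NPCs, with a log2 fold change of 1.94 ± 0.53 (SE, edgeR adjusted p = 0.0631). FOR205 with REV099 had 1364 and 1187 in ES cells and 2582 and 7134 in NPCs, which is a log2 fold change of 0.71 ± 0.54 (SE, edgeR adjusted p = 0.414). In all 4 libraries both pairs stood at least 4.54 above expected. FOR192 with REV009, FOR329 with REV121, FOR226 with REV014 and FOR062 with REV318 joined fragments 550 to 691 kb apart with 13 to 466 reads in each library. The first and second of these had log2 fold changes of −3.23 ± 0.91 and −2.62 ± 0.76 (SE, edgeR adjusted p = 0.0667 and 0.0707), and the other two had −1.31 ± 0.60 and 0.52 ± 0.74 (SE, edgeR adjusted p = 0.190 and 0.669). Constitutive here means that a pair was not called, and does not mean that its reads were equal in both cell types. FOR239 with REV255, 37.1 kb apart, had 41 and 46 reads in ES cells and 109 and 281 in NPCs, with a log2 fold change of 0.93 ± 0.57 (SE, edgeR adjusted p = 0.313). It was below expected by distance alone, with a lowest value of −0.21, so its level rests on the fragment effects.

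**Figure D3:**
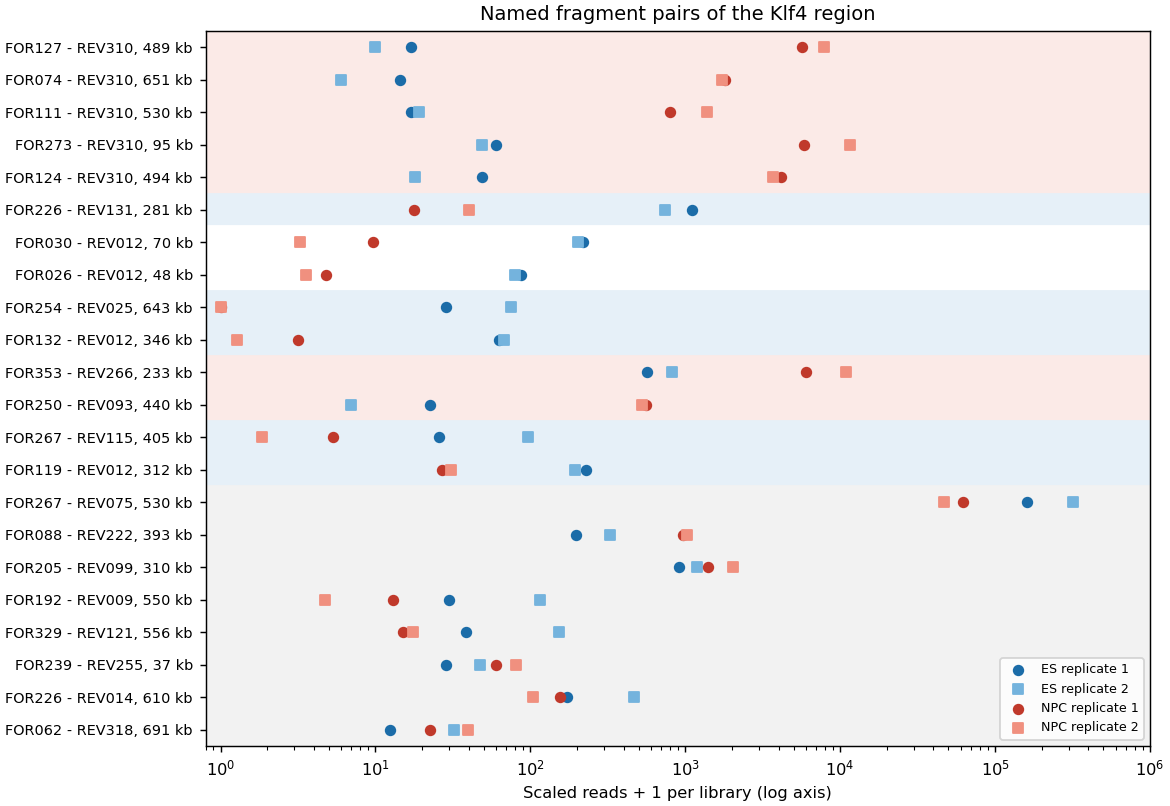
Scaled reads + 1 per library on a log axis for the 22 named pairs, with circles for replicate 1 and squares for replicate 2 of ES cells (blue) and NPCs (red). Shading marks NPC-specific (pink), ES-specific (light blue) and constitutive (grey) pairs, unshaded pairs have no class, and FOR267 with REV075 lies far to the right of all others.

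Averages over windows show the region at a coarser scale. In windows of 60 kb by 60 kb, 6 of 153 Klf4 windows were higher in NPCs and 7 lower in observed over expected (limma, adjusted over all regions). The shares over all regions were 2.71% and 4.61%, against 3.92% and 4.58% here. The median difference was −0.10 both in the Klf4 region and over all windows. Counts changed to 0 and 0 without either ES replicate, to 24 and 58 without NPC replicate 1 and to 26 and 48 without NPC replicate 2. With windows of 40 kb limma called 0 in either direction, with 41 and 66 at an unadjusted p under 0.05, and with the authors' ratio it called 0, with 11 and 39.

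The windows higher in NPCs lay on or near the diagonal. Within 720 to 780 kb observed over expected was −0.40 and −0.33 in ES cells and 0.35 and 0.34 in NPCs, a difference of 0.71 ± 0.10 (SE, limma adjusted p = 0.0307). Between 660 to 720 kb and 720 to 780 kb it was −0.12 and −0.01 in ES cells and 0.50 and 0.51 in NPCs, and within 660 to 720 kb it was 0.01 and 0.08 in ES cells and 0.60 and 0.62 in NPCs. At the start of the region, within 0 to 60 kb, it rose by 0.79 ± 0.15 from −0.88 and −1.20, but by distance alone the difference there was −0.30. The remaining windows joined 180 to 240 kb with 300 to 360 kb and 840 to 900 kb with 900 to 960 kb, with differences of 0.44 and 0.31.

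The windows lower in NPCs mostly joined the parts of the region below and above 630 kb. Between 300 to 360 kb and 720 to 780 kb observed over expected was −0.18 and −0.03 in ES cells and −0.70 and −0.90 in NPCs. Between 360 to 420 kb and 660 to 720 kb it was −0.54 and −0.51 in ES cells and −1.13 and −1.30 in NPCs. Between 240 to 300 kb and 840 to 900 kb it fell from −0.02 and 0.10 to −0.45 and −0.62. The differences were −0.70 ± 0.10, −0.69 ± 0.08 and −0.58 ± 0.08 (SE, limma adjusted p = 0.0323, 0.0302 and 0.0323). Next was the window between 540 to 600 kb and 660 to 720 kb, with −0.47, followed by 0 to 60 kb with 180 to 240 kb, 480 to 540 kb with 660 to 720 kb and 120 to 180 kb with 780 to 840 kb, with −0.45 to −0.40. Thus 6 of the 7 windows joined fragments on either side of 630 kb, and the exception lay within 240 kb of the start. The position 630 kb was picked from the boundary contrasts below, which use the same values. The share of all windows that join its sides was not counted, but pairs that do so are many. The part above 630 kb forms 3563 of the region's 14762 pairs with 40 to 350 kb and 3088 with 350 to 630 kb. The 6 of 7 windows are therefore a description, and no excess is shown. By distance alone the differences between 300 to 360 kb and 720 to 780 kb and between 120 to 180 kb and 780 to 840 kb were 0.20 and 0.08, and neither passed the test.

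**Figure D4:**
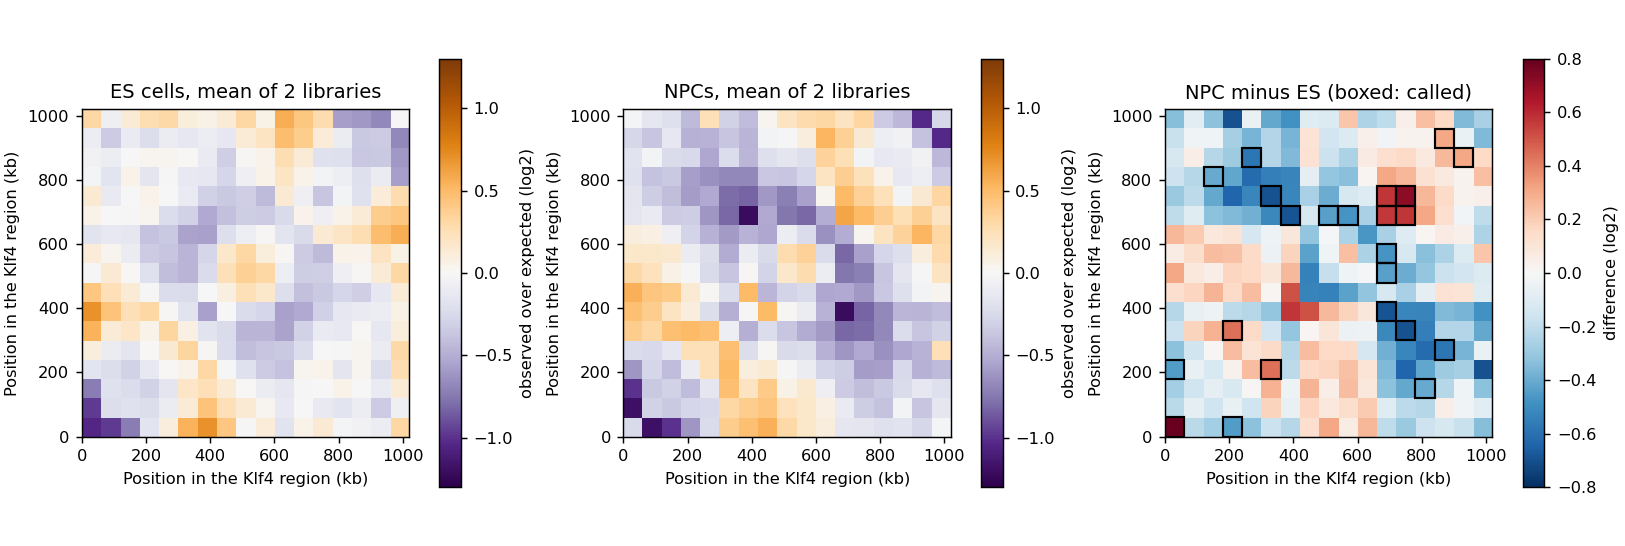
Mean observed over expected (log2) per 60 kb by 60 kb window along the region in kb, for ES cells, NPCs and NPC minus ES, with called windows boxed. The red block at 660 to 780 kb on the diagonal of the difference map holds values of 0.57 to 0.71, and the blue boxes away from it reach −0.70.

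A boundary contrast was computed every 10 kb as the mean observed over expected of pairs on the same side of the position minus that of pairs spanning it, within 150 kb. Neighbouring positions share most of their pairs, so counts of positions measure width as well as number. Of 98 positions, 36 were stronger in NPCs and 13 weaker (limma, adjusted over all regions), which is 36.7% and 13.3% against 35.5% and 17.6% over all regions. The stronger positions formed runs at 50 to 180 kb, 310 to 360 kb, 590 to 680 kb and 810 to 850 kb, with 1 more at 980 kb. The weaker ones lay at 20 to 30 kb, 220 to 240 kb and 380 to 450 kb. Without ES replicate 1 and 2 in turn there were 19 and 23 stronger positions, and without ES replicate 2 there were 7 weaker ones.

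The largest change was at 630 kb. The contrast there was 0.33 and 0.28 in ES cells and 0.90 and 0.96 in NPCs, so from 0.30 ± 0.04 to 0.93 ± 0.05 (SD, n = 2 libraries each). The difference was 0.63 ± 0.05 (SE, limma adjusted p = 3.99e-04), and it passed the threshold under all alternatives tried, with values of 0.40 to 0.92. At 350 kb the contrast was 0.02 and 0.05 in ES cells and 0.47 and 0.48 in NPCs, a difference of 0.44 ± 0.05 (SE, limma adjusted p = 5.07e-04). This change too passed the threshold under all alternatives, with 0.22 to 0.61.

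Close to it the contrast moved the other way. In ES cells it peaked at 390 kb, with 0.53 and 0.45, where NPCs had 0.20 and 0.28, and the difference was −0.25 ± 0.06 (SE, limma adjusted p = 0.00848). At 400 kb the contrast was 0.44 and 0.42 in ES cells and 0.02 and 0.13 in NPCs. The peak between 300 and 450 kb thus stood at 390 kb in ES cells and at 350 kb in NPCs, 40 kb apart. The fall at 390 kb was lost without ES replicate 1 (limma adjusted p = 0.0687), by distance alone (0.0694) and with the authors' ratio (0.524), which also ended the call at 400 kb (0.182), while the gain at 350 kb was not lost in any of these.

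Further peaks lay near the ends of the region, where few pairs span a position. At 30 kb the contrast was 0.87 and 0.94 in ES cells and 0.40 and 0.45 in NPCs (difference −0.48 ± 0.05, SE, limma adjusted p = 4.89e-04), and the call was lost by distance alone and with a reach of 200 kb (limma adjusted p = 0.118 and 0.0983). At 40 kb, where NPCs peaked, it was 0.77 and 0.80 in ES cells and 0.79 and 0.81 in NPCs and did not pass the test (limma adjusted p = 0.857). At 980 kb it was 0.44 and 0.48 in ES cells and 0.63 and 0.71 in NPCs, but the difference turned to −0.094 with the authors' ratio and to −0.016 with values scaled to equal spread.

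**Figure D5:**
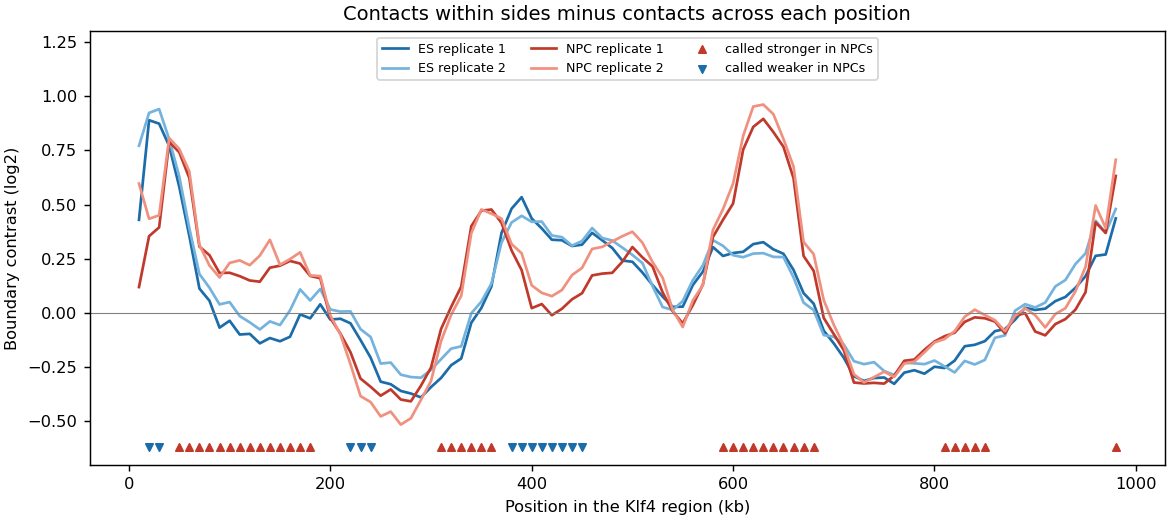
Boundary contrast (log2) at each 10 kb along the region for the 4 libraries, with triangles under positions called stronger or weaker in NPCs. The NPC lines rise to 0.90 and 0.96 at 630 kb against 0.33 and 0.28 in ES cells, and the peak at 390 kb in ES cells stands opposite one at 350 kb in NPCs.

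The NPC peaks at 40, 350 and 630 kb divide the region into 3 stretches and a short start. This division was made after the contrasts were seen, so the averages over it are a description with no test. Within the stretch above 630 kb the mean observed over expected was −0.09 and −0.07 in ES cells and 0.10 and 0.15 in NPCs. Between that stretch and 350 to 630 kb it was −0.09 in both ES libraries and −0.35 and −0.46 in NPCs. Between it and 40 to 350 kb it was −0.08 in both ES libraries and −0.31 and −0.58 in NPCs. These means cover all pairs, tested or not, and the calls on reads did not follow them. Between it and 40 to 350 kb, 38 of 687 tested pairs were called higher in NPCs and 4 lower. With 350 to 630 kb the calls were 38 and 22 of 1240. The 2 stretches below 630 kb changed less, with differences of 0.06 between them and 0.07 and 0.10 within them. By distance alone the difference between 40 to 350 kb and the part above 630 kb was 0.22, and that within 350 to 630 kb was −0.27.

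Of the 1955 tested pairs that span 630 kb, 78 were called higher in NPCs and 27 lower. These are 3.99% and 1.38%, against 4.38% and 1.95% of all tested Klf4 pairs. The mean observed over expected of REV310 over its 42 pairs with partners below 350 kb was −0.28 and −0.17 in ES cells and −0.90 and −1.05 in NPCs. Of these pairs 28 had enough reads to be tested, and 8 were called higher in NPCs, FOR074 with REV310 among them. With partners above 630 kb the mean rose from −0.20 and 0.00 in ES cells to 0.51 and 0.45 in NPCs. The spread of observed over expected over all Klf4 pairs was also wider in NPCs, with SDs of 1.23 and 1.49 against 0.90 in both ES libraries. Scaled to equal spread, the differences at 630 and 350 kb were 0.40 and 0.35 (limma adjusted p = 1.44e-05 and 5.28e-05), an alternative chosen after the data were seen.

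Calls were also counted by distance. Pairs under 10 kb apart were called higher in NPCs in 6.86% of 350 tested and higher in ES cells in 3.14%. Over all regions the shares at that distance were 8.64% and 4.40%. At 10 to 50 kb they were 6.56% and 1.98% of 1112 in the Klf4 region, against 7.67% and 3.76% over all regions. At 50 to 100 kb the shares were 4.77% and 3.73% of 1153, against 5.30% and 3.39%. At 100 to 200 kb they were 3.39% and 1.61% of 1741, against 4.23% and 2.55%. At 200 to 400 kb the shares were 3.09% and 1.49% of 1940, against 3.59% and 2.01% over all regions. From 400 kb on they were 4.83% and 1.00% of 1098, against 3.92% and 1.13% over all regions at 400 to 1000 kb. The median log2 fold change there was 0.89, against 0.35 over all regions. The Klf4 shares lay below those of all regions except toward ES cells at 50 to 100 kb and toward NPCs from 400 kb on. The filter on mean reads leaves 1098 of 5257 pairs at this distance, and a pair low in ES cells could pass it through its NPC reads.

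The shares can be set beside those of the Sox2 and Nanog regions, loci of other transcription factors of pluripotent cells. In the Sox2 region 4.66% of 8692 tested pairs were higher in NPCs and 1.17% lower. In the Nanog region the shares were 3.23% and 4.60% of 3064. Boundary positions stronger in NPCs made up 28.6% and 30.6% of those of the Sox2 and Nanog regions, against 36.7% in Klf4. These differences between regions were not tested.

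The authors' deposited table gives a p-value per pair and library against their own predicted signal. In this table, 18 Klf4 pairs had a p of at most 0.001 in both ES libraries and 18 in both NPC libraries, of 14762, and 7 pairs met it in all 4. Over all regions 0.186% and 0.191% of pairs met the limit in both libraries of ES cells and of NPCs. Of the 18 pairs of the authors' deposited table in NPCs, 9 were also called higher in NPCs by edgeR, and 4 had REV310 as an end. Of the 18 in ES cells, 4 were called higher in ES cells. Among the 7 in all 4 libraries, 6 were constitutive by the rule above, FOR267 with REV075, FOR088 with REV222 and FOR205 with REV099 among them.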

How the data were processed

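5C libraries of ES cells and NPCs (2 each) were analysed from the table the authors deposited. The authors deposited raw counts, the whole numbers of reads assigned to each fragment pair in a library, without normalization. The authors also deposited a predicted signal, a ratio that equalled reads over that signal at a tolerance of 0.001 in all Klf4 values (0 reads entered as 0.25), and a p-value per pair. For their model and for the build of the 5C alignment, details were not given in the sources used here. The submitters' processing notes name Bowtie. 8 per-sample columns and the peak lists of the series were not used. Depth was 10742380 and 8236666 reads in ES and 15899829 and 42673906 in NPC replicates 1 and 2. PCR copies are not independent molecules, so bounds cover counting error only.

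Positions were rebuilt from the table's distances, with a largest misfit of 0.556 bp. Pairs with a mean of at least 10 reads, and sums per fragment, were tested over all regions with edgeR 4.0.16 (R 4.3.3, TMM, quasi-likelihood, cell type as the only term), with Benjamini-Hochberg adjustment and a threshold of 0.05. The SE is the log2 fold change over the root of the F statistic. Observed over expected was log2(count + 1) less a lowess curve (span 0.3) and median fragment effects in 5 rounds per region. Windows (60 kb, at least 4 pairs) and boundary contrasts (at least 10 pairs) were tested with limma 3.58.1. DESeq2 1.42.0 was an alternative. The scripts were tested on simulated data. Named pairs were the 5 with the lowest adjusted p in each direction, the 5 NPC-specific and 5 ES-specific with the highest level, and the 8 constitutive ones at least 20 kb apart with the highest lowest level. Named fragments were the 5 with the lowest adjusted p and the 5 with most calls in each direction. All called windows were named, and boundary peaks of at least 0.4 within 100 kb. The region, the members and these rules were chosen with earlier results of these data known.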

Additional observations from a re-analysis of the deposited data

How the results depend on the processing

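The counts of Klf4 pairs, windows and classes moved most. With those higher in NPCs first and those lower second, pairs numbered 160 and 153 with library totals, 837 and 334 without the count filter, 349 and 470 at a mean of at least 50 reads, 657 and 434 with DESeq2, 77 and 26 with limma and 0 and 0 with the fragment-wide offset in edgeR. Leaving out 1 library gave 7 to 1593 and 3 to 1962 pairs. Fragments numbered 27 higher in NPCs with library totals and 29 to 58 and 16 to 78 with 1 library left out. Windows numbered 27 and 18 by distance alone, 12 and 13 with a pseudocount of 5, 17 and 21 when scaled to equal spread and 0 and 0 at 40 kb and with the authors' ratio (limma, 41 and 66, and 11 and 39 at an unadjusted p under 0.05). Leaving out 1 library gave 0 to 26 and 0 to 58. Weaker boundary positions numbered 8 with a reach of 200 kb, 3 with the authors' ratio and 20 when scaled to equal spread, and there were 19 to 35 stronger and 7 to 17 weaker positions with 1 library left out. Constitutive, NPC-specific and ES-specific pairs numbered 16, 71 and 5 at a level of 1.5, 1940, 289 and 115 by distance alone and 181, 177 and 28 with a pseudocount of 5. With 1 library left out they numbered 79 to 168, 7 to 734 and 3 to 76. The decay difference was 0.0371 without pairs at 0 reads, 0.0263 with library totals and −0.0433 to −0.0139 with 1 library left out. The cause was not tested.

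With the replicate number as a block, pairs numbered 406 and 226, fragments 32 and 51, windows 0 and 0 (limma, 15 and 37 at an unadjusted p under 0.05) and boundary positions 31 and 13. The deviations of same-numbered libraries correlated at −0.149 over Klf4 pairs. Depth and pairs at 0 reads also enter this value, so it cannot tell whether same-numbered libraries were prepared together. The labels do not say. With a crossed replicate block, chosen after the data were seen, pairs numbered 480 and 231, fragments 60 and 43, windows 0 and 0 and boundary positions 33 and 13. Among named results, signs turned in the windows within 0 to 60 kb (−0.30), 120 to 180 kb with 780 to 840 kb (0.081) and 300 to 360 kb with 720 to 780 kb (0.198) by distance alone. They turned at the boundary at 980 kb with the authors' ratio (−0.094) and equal spread (−0.016), and at 40 kb with a reach of 100 kb (−0.15), a pseudocount of 5 (−0.0014), without ES replicate 1 (−0.0030, against 0.028 without ES replicate 2) and at equal spread (−0.32). They also turned in the means over stretches, between 40 to 350 and 350 to 630 kb with the authors' ratio (−0.081), between 40 to 350 kb and the part above 630 kb (0.22) and within 350 to 630 kb (−0.27) by distance alone, and in the constitutive pair FOR239 with REV255 by distance alone (−0.21). With 2 libraries per cell type, depth and the spread between libraries limit the calls, and a pair at 0 reads is not shown to be absent.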
